A study of Homo sapiens with 8 samples.

Results

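The ZBTB genes encode transcription factors that pair an amino-terminal BTB domain with zinc fingers, and most of those studied act as repressors. They were read here in DND-41 and MOLT-4, both established cell lines from human T-cell acute lymphoblastic leukaemia, or T-ALL. The family was taken as every gene whose symbol is ZBTB followed by a number and, where present, 1 letter. This rule matched 41 symbols, carried by 51 of the 63677 annotated gene entries. The 10 entries that repeat a symbol (of ZBTB12, ZBTB22, ZBTB9 and ZBTB33) had 0 counts in every library, so each symbol was described by its single counted entry. Of the 41 symbols, 40 had at least 1 count in some library. Neighbouring symbols such as ZBTB8OS and ZBTB11-AS1 do not match the rule. The members were chosen by their symbols, but the family itself was selected on measured values, the fold changes of ACBI-1 over DMSO and of the lines in these libraries, so its counts and fold changes are given as a description.

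The groups were DND-41 with ACBI-1, DND-41 with DMSO, MOLT-4 with ACBI-1 and MOLT-4 with DMSO, with 2 libraries each, made from total RNA of cells exposed for 3 h. ACBI-1, given at 100 nM, is a bifunctional degrader that joins the VHL ubiquitin ligase to SMARCA2, SMARCA4 and PBRM1, proteins of the SWI/SNF chromatin remodelling complexes, and DMSO is its solvent. Protein was not measured, so the loss of these targets was not checked here. Each line stands for a single leukaemia, and no label says if libraries of the same group were grown separately. The p-values therefore reflect library-to-library spread alone, and this spread may be technical.

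The BTB domain lets these proteins pair with each other and offers a surface for co-repressors such as NCOR1 and BCOR, which bring histone deacetylases, or for the CUL3 ubiquitin ligase. The zinc fingers read the DNA. In the T lineage the family is known for fate decisions studied mainly in mice: ZBTB7B (ThPOK) directs thymocytes to the CD4 fate, ZBTB16 (PLZF) marks innate-like T cells, ZBTB7A (LRF) restrains Notch-driven T-cell fate, and ZBTB1 and ZBTB17 (MIZ-1) are needed for lymphoid development. ZBTB4, ZBTB33 (Kaiso) and ZBTB38 bind methylated DNA.

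The libraries held between 19867779 and 20082524 counts, so a library with 0 reads of a gene allows up to 0.151 CPM (counts scaled to a fixed library total), counting error only. The ACBI-1 libraries of DND-41 differed most from each other, with a mean chi-square per gene of 17.2 against 3.19 to 5.58 in the other groups, and mitochondrially encoded genes took 17.4% and 13.3% of their counts. DND-41 DMSO replicate 2 stood apart in another way. Over 89 genes with at least 200 counts in every MOLT-4 library and none in the DND-41 ACBI-1 libraries it held 328 counts, which is 0.601% of their MOLT-4 level, against 25 counts in replicate 1. All 8 T-lineage markers were detected in every group. TAL1 and LMO2, oncogenes of T-ALL, summed to 0 to 4 counts in DND-41 and 800 to 849 in MOLT-4. Of 5 B-lineage markers, 3 passed 3 counts in the DND-41 libraries and 2 in those of MOLT-4, with summed counts of 31060 to 35423 in DND-41 and 204 to 337 in MOLT-4, nearly all from CD79A, while MS4A1 was at 0 throughout. Myeloid and erythroid markers summed to at most 14 counts, with CD33, LYZ, HBA1 and HBB at 0. Epithelial and fibroblast markers summed to 680 and 708 counts with ACBI-1 and 955 and 1162 with DMSO in DND-41, nearly all from PDGFRB, and to 75 to 89 in MOLT-4, with COL1A2 at 0. The part of these genes in the results was not tested.

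**Figure D1:**
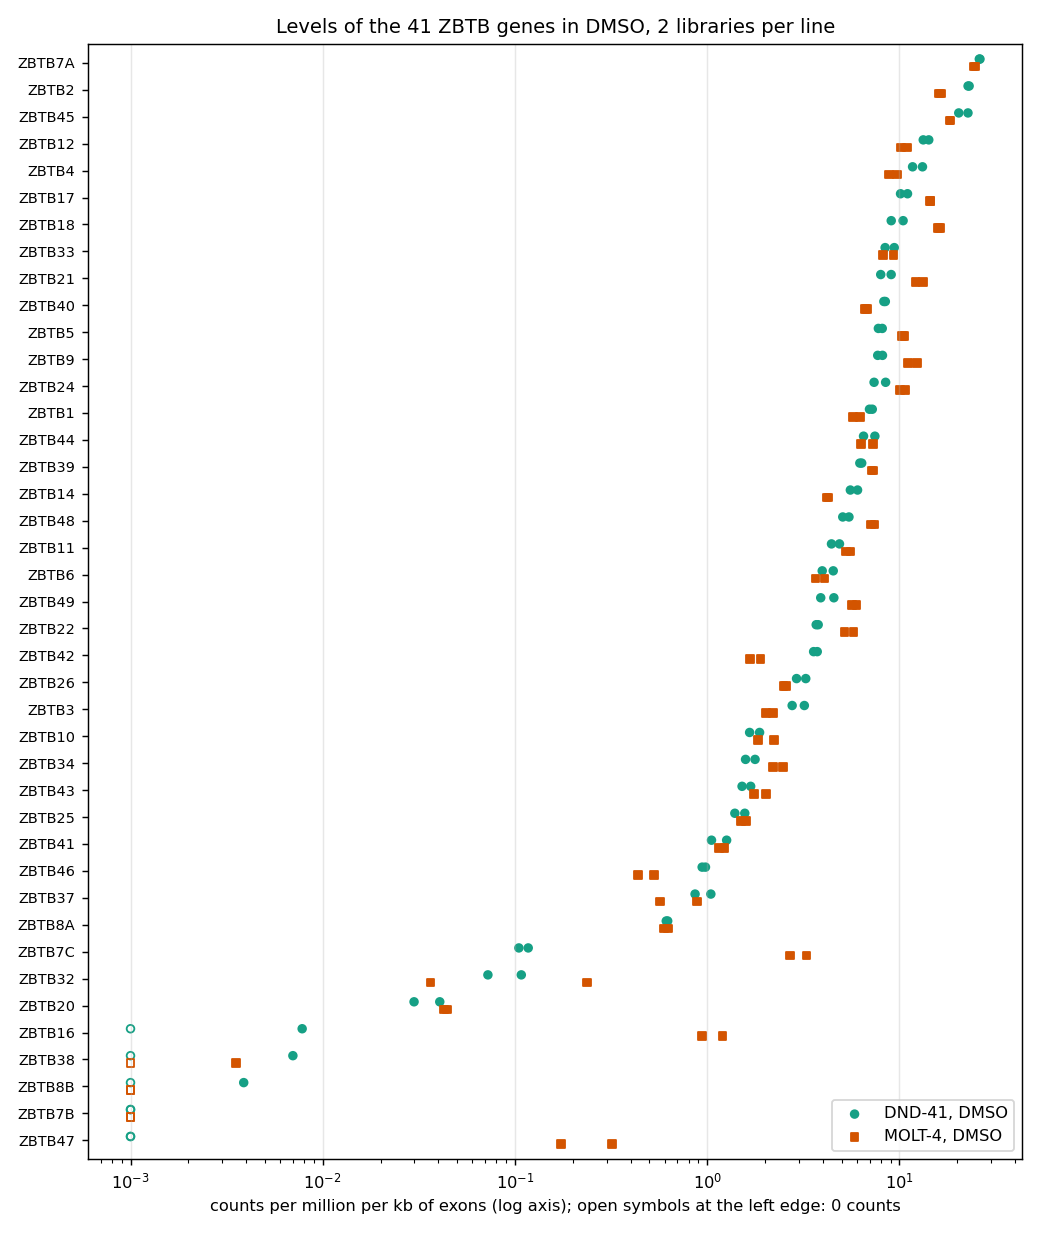
Levels of the 41 ZBTB genes in DMSO as CPM per kilobase of exons on a log axis, with 1 symbol per library (circles DND-41, squares MOLT-4) and open symbols at the left edge for 0 counts. ZBTB7A is highest in both lines, with 26.1 for DND-41 and 24.6 for MOLT-4, and most genes lie between 1 and 20, while ZBTB16, ZBTB7C and ZBTB47 lie far apart between the lines.

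Per kilobase of exon, ZBTB7A was the highest family member in both lines. Its level in DMSO was 26.1 ± 0.147 CPM per kb in DND-41 and 24.6 ± 0.418 CPM per kb in MOLT-4 (SD, n = 2). In DND-41 it was followed by ZBTB2 at 22.9 ± 0.207 and ZBTB45 at 21.5 ± 1.68 CPM per kb, which did not differ beyond their spread, and then by ZBTB12 at 13.8 ± 0.641 and ZBTB4 at 12.4 ± 1.04 CPM per kb, which lay within their spread of each other. In MOLT-4 the order was ZBTB45 at 18.3 ± 0.143, ZBTB2 at 16.2 ± 0.299, ZBTB18 at 16.1 ± 0.239 and ZBTB17 at 14.5 ± 0.107 CPM per kb, and ZBTB2 and ZBTB18 did not differ beyond their spread. Together the 41 genes took 1103.4 and 1115.3 CPM in the ACBI-1 libraries of DND-41, against 1222.1 and 1157.3 CPM in its DMSO libraries. In MOLT-4 they took 1159.7 and 1154.8 CPM with ACBI-1, against 1221.9 and 1284.5 CPM with DMSO. In each line both ACBI-1 libraries lay below both DMSO libraries in this sum. Abundant members weigh most in it. From DMSO to ACBI-1, mean ZBTB7A went from 150 to 107 CPM in DND-41 and from 141 to 100 CPM in MOLT-4. Mean ZBTB2 went from 70.8 to 42.4 CPM in DND-41 and from 50.1 to 30.5 CPM in MOLT-4. The log2 fold change was above 0 for 15 of 35 members tested in DND-41 and 11 of 37 in MOLT-4.

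A few of the best known members had few or no counts. ZBTB7B had 0 counts in all 8 libraries. Both lines carried transcripts of CD4 (105 to 109 counts in DND-41 and 357 to 435 in MOLT-4). They also carried CD8A (32 to 43 and 204 to 270) and CD8B (49 to 58 and 93 to 104). DCST2, which overlaps ZBTB7B on the other strand in GENCODE release 29, had at most 4. ZBTB38 had 7 and 7 counts with ACBI-1 and 0 and 2 with DMSO in DND-41, and at most 2 in any MOLT-4 library. ZBTB32 (ROG), known for holding back GATA3 and cytokine genes in T cells, had 2 to 13 counts per library. ZBTB20, a repressor known from liver and B cells, had 23 and 32 counts with ACBI-1 and 19 and 26 with DMSO in DND-41, and 28 and 18 with ACBI-1 and 28 and 27 with DMSO in MOLT-4. ZBTB8B had at most 2 counts. The ZBTB20 groups overlapped in both lines, and its change passed no test.

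The first comparison asked which family members changed after 3 h of ACBI-1 in DND-41. Of 41 members, 35 passed the filter on low counts, and ZBTB7B, ZBTB8B, ZBTB16, ZBTB32, ZBTB38 and ZBTB47 did not. ZBTB42, ZBTB2, ZBTB7A, ZBTB26, ZBTB12, ZBTB1, ZBTB4 and ZBTB21 fell and ZBTB37, ZBTB11, ZBTB17 and ZBTB40 rose, which makes 12 calls at an adjusted p under 0.05 (edgeR quasi-likelihood test, adjusted over all genes tested). That is 34.3% of the members tested, beside 9.83% of the 14019 genes tested. The falls were 8 members (22.9%, beside 6.05% of all genes) and the rises 4 (11.4%, beside 3.78%). The median log2 fold change was -0.07 over the 35 members and 0.0029 over all genes tested. In bulk RNA, fewer cells with a transcript and less transcript per cell cannot be told apart.

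In MOLT-4 37 members passed the filter, all but ZBTB7B, ZBTB8B, ZBTB32 and ZBTB38. ZBTB42, ZBTB7C, ZBTB2, ZBTB7A, ZBTB4, ZBTB26, ZBTB1 and ZBTB45 fell and ZBTB11 and ZBTB17 rose. These 10 calls were 27% of the members tested, beside 10.8% of the 14470 genes tested, with 8 falls (21.6%, beside 6.94%) and 2 rises (5.41%, beside 3.9%). The median log2 fold change was -0.16 over the members and -0.0010 over all genes. Only ZBTB42 changed at least 2-fold in either line among members that were called. It was 1 of 35 members in DND-41, beside 99 of 14019 genes, and 1 of 37 in MOLT-4, beside 169 of 14470 genes.

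**Figure D2:**
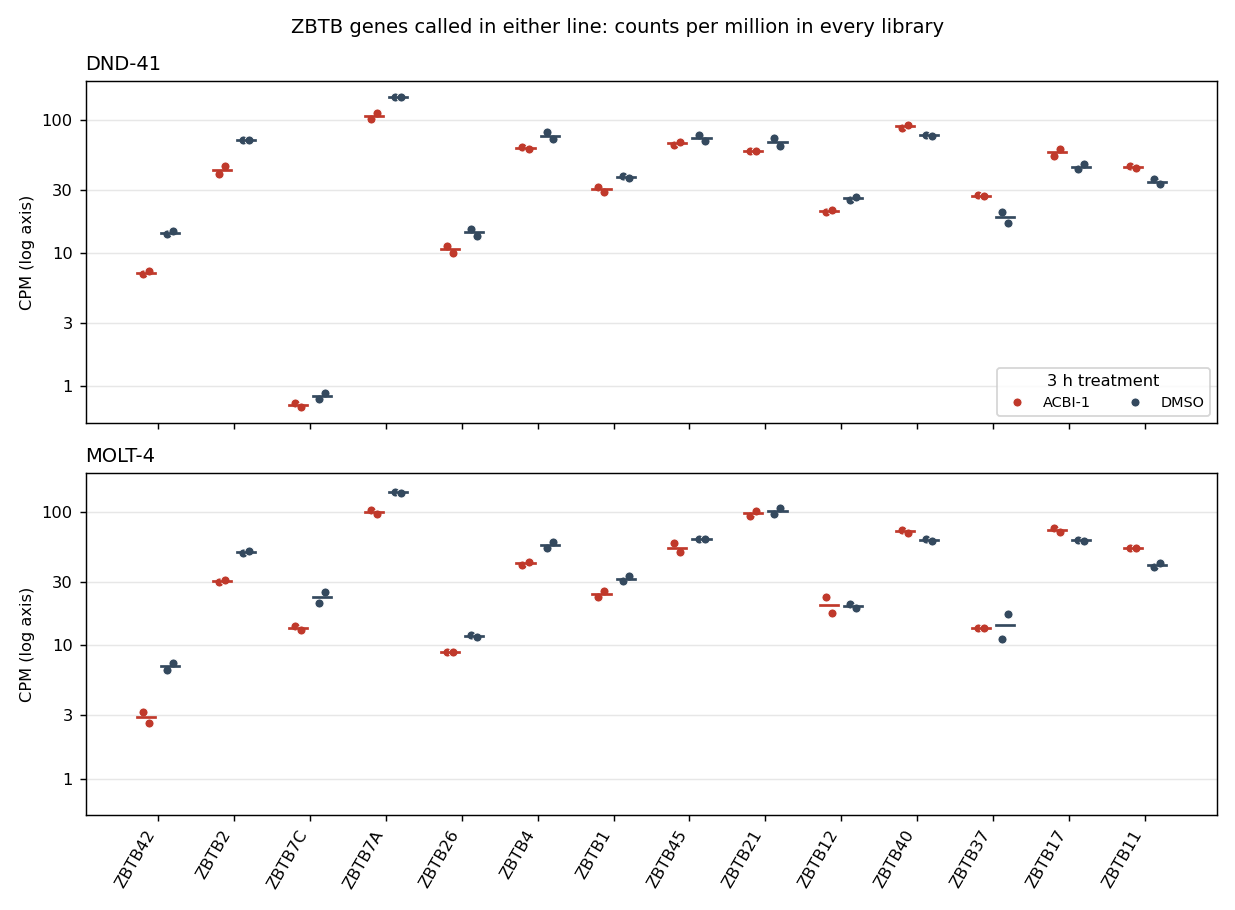
Levels in CPM on a log axis for the 14 ZBTB genes called in either line, with ACBI-1 libraries in red left of DMSO libraries in dark blue, 1 point per library and a bar at the mean of 2. ZBTB42, ZBTB2, ZBTB7A, ZBTB26, ZBTB4 and ZBTB1 lie lower with ACBI-1 in both lines without overlap, and ZBTB11 and ZBTB17 lie higher.

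These calls rested on few libraries. With 2 libraries against 2, groups can be apart without a call, as those of ZBTB39 were in both lines. Groups without overlap are therefore a description and no further support for a call. In DND-41 the count of called members was 0 without ACBI-1 replicate 1, 3 without ACBI-1 replicate 2 (ZBTB2, ZBTB42 and ZBTB7A), 5 without DMSO replicate 1 (ZBTB2, ZBTB7A, ZBTB11, ZBTB37 and ZBTB42) and 7 without DMSO replicate 2. Without this last library, which stood apart, the calls were ZBTB42 (-0.97), ZBTB2 (-0.75), ZBTB26 (-0.50), ZBTB7A (-0.48), ZBTB4 (-0.39), ZBTB37 (0.41) and ZBTB17 (0.41). Over all genes the same fits called 3, 177, 610 and 632 genes. In MOLT-4 no member was called without either ACBI-1 library, where no gene of the whole table was called. Without either DMSO library fewer members were called than in the full fit, and fewer of all genes as well. Each fit compares a lone library with 2 others and assumes that it varies as they do.

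The members that fell in both lines were led by ZBTB42, a close relative of ZBTB18 known from skeletal muscle. In DND-41 it had 139 and 148 counts with ACBI-1, against 279 and 293 with DMSO, and in MOLT-4 63 and 52 counts with ACBI-1, against 130 and 147 with DMSO. Both ACBI-1 libraries lay far below both DMSO libraries in each line. The log2 fold change was -1.004 ± 0.13 in DND-41 (SE, edgeR, adjusted p = 6.4e-07) and -1.30 ± 0.17 in MOLT-4 (adjusted p = 8.11e-06).

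ZBTB2, which binds unmethylated CpG-rich DNA and is known as a repressor of CDKN1A, had 786 and 913 counts with ACBI-1 and 1422 and 1412 with DMSO in DND-41. In MOLT-4 it had 597 and 615 counts with ACBI-1 and 984 and 1009 with DMSO. All ACBI-1 libraries were lower, and the change was nearly equal in size in the lines, at -0.75 ± 0.08 in DND-41 (edgeR, adjusted p = 1.95e-08) and -0.75 ± 0.08 in MOLT-4 (adjusted p = 9.95e-08). ZBTB7A, the most abundant member and also a silencer of fetal globin genes, had 2030 and 2260 counts with ACBI-1 and 2976 and 3017 with DMSO in DND-41, and 2057 and 1924 with ACBI-1 and 2833 and 2763 with DMSO in MOLT-4. Its groups did not overlap in either line, with a log2 fold change of -0.49 ± 0.07 in DND-41 (edgeR, adjusted p = 3.94e-06) and -0.52 ± 0.06 in MOLT-4 (adjusted p = 1.4e-06).

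ZBTB4, a binder of methylated DNA, had 1264 and 1210 counts with ACBI-1 and 1612 and 1440 with DMSO in DND-41, which gives -0.31 ± 0.08 on the log2 scale (edgeR, adjusted p = 0.00505). In MOLT-4 it had 801 and 847 counts with ACBI-1 and 1079 and 1180 with DMSO, a log2 fold change of -0.48 ± 0.07 (adjusted p = 5.34e-05). Both ACBI-1 libraries lay below both DMSO libraries in each line. ZBTB33, which also binds methylated DNA, was not called in either line. It had 991 and 989 counts with ACBI-1 and 997 and 899 with DMSO in DND-41, and 920 and 919 with ACBI-1 and 869 and 983 with DMSO in MOLT-4, so that its groups overlapped, at 0.05 ± 0.08 in DND-41 (edgeR, adjusted p = 0.776) and -0.04 ± 0.08 in MOLT-4 (adjusted p = 0.831).

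ZBTB1, which is needed for T-cell development in mice, had 633 and 583 counts with ACBI-1 and 762 and 741 with DMSO in DND-41, and 458 and 505 with ACBI-1 and 603 and 654 with DMSO in MOLT-4. Its groups were apart in both lines, at -0.31 ± 0.08 in DND-41 (edgeR, adjusted p = 0.0123) and -0.41 ± 0.09 in MOLT-4 (adjusted p = 0.00199). Part of ZBTB1 lies opposite ZBTB25 on chromosome 14, and the sources used here do not say whether counting used the strand. If counting did not use the strand, reads of the overlap could not be assigned between them. ZBTB25 itself was at 0.23 ± 0.10 in DND-41 (adjusted p = 0.175) and 0.09 ± 0.10 in MOLT-4 (adjusted p = 0.675). ZBTB26, a member on chromosome 9, had 228 and 201 counts with ACBI-1 and 302 and 272 with DMSO in DND-41, and 176 and 177 with ACBI-1 and 238 and 230 with DMSO in MOLT-4. Its ACBI-1 libraries were the lower ones in both, at -0.43 ± 0.12 in DND-41 (edgeR, adjusted p = 0.0161) and -0.44 ± 0.12 in MOLT-4 (adjusted p = 0.0176).

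The members that rose in both lines were ZBTB11 and ZBTB17. ZBTB11, known for genes of mitochondrial function and, in zebrafish, for neutrophil development, had 912 and 883 counts with ACBI-1 and 722 and 660 with DMSO in DND-41, and 1070 and 1070 with ACBI-1 and 776 and 821 with DMSO in MOLT-4. Every ACBI-1 library was higher than every DMSO library of its line, at 0.37 ± 0.08 in DND-41 (edgeR, adjusted p = 0.00217) and 0.39 ± 0.07 in MOLT-4 (adjusted p = 0.000448). ZBTB11-AS1, which overlaps it on the other strand, had 59 and 55 counts with ACBI-1 and 80 and 95 with DMSO in DND-41, and 40 and 48 with ACBI-1 and 54 and 53 with DMSO in MOLT-4.

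ZBTB17 encodes MIZ-1, a partner of MYC that activates cell-cycle inhibitor genes when MYC is absent and represses them with it. It had 1072 and 1224 counts with ACBI-1 and 858 and 938 with DMSO in DND-41, and 1517 and 1399 with ACBI-1 and 1225 and 1211 with DMSO in MOLT-4. The groups did not overlap, at 0.34 ± 0.08 in DND-41 (edgeR, adjusted p = 0.00332) and 0.23 ± 0.07 in MOLT-4 (adjusted p = 0.0262).

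The upstream DNA of ZBTB42, ZBTB2 and ZBTB4, which fell in both lines, and of ZBTB11, which rose in both, is shown because these members were called in the same direction in both lines and each has a single start in the RefSeq table used. Each window holds the 250 bases before that start on GRCh38.p14, taken from RefSeq, and is printed 5′ to 3′ on the gene's strand. They lie at chr14:104800851-104801100 on the plus strand for ZBTB42, and on the minus strand at chr6:151391560-151391809 for ZBTB2, chr17:7484250-7484499 for ZBTB4 and chr3:101677133-101677382 for ZBTB11. Capitals mark matches, on either strand, to the GC box (GGGCGG), the ETS core (CCGGAAG), the CCAAT box (CCAAT), the E-box of MYC and MAX (CACGTG) and the cAMP response element (TGACGTCA), and no match overlaps another.
ZBTB42: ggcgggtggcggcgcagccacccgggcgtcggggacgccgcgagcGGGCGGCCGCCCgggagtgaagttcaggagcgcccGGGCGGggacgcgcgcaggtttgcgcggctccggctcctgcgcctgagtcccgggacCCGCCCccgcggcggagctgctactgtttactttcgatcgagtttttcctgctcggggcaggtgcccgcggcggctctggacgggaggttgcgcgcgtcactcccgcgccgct
ZBTB2: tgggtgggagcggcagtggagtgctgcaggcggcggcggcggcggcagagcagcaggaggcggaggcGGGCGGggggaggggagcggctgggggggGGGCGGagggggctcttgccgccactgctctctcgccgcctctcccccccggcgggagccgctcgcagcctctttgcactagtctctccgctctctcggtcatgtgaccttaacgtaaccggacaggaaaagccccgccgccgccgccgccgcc
ZBTB4: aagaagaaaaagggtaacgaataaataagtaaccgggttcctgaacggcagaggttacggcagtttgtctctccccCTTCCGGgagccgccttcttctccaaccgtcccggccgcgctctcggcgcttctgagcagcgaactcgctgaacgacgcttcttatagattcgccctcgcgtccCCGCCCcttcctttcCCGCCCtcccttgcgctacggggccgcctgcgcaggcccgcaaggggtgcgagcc
ZBTB11: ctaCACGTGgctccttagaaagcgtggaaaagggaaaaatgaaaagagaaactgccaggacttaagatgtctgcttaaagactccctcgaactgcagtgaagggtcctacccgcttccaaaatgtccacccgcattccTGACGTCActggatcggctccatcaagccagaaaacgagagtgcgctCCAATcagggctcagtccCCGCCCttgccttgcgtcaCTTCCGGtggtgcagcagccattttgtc

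The 3 windows of falling members held GC boxes, 4 in ZBTB42, 2 in ZBTB2 and 2 in ZBTB4, with 1 ETS core in ZBTB4. The ZBTB11 window held 1 match of each of the 5 motifs, and its ETS core ended 22 bases before the start. Of all 35116 promoter windows of this length, 42.6% held a GC box, 8.52% an ETS core, 32% a CCAAT box, 6.34% the E-box and 1.65% the cAMP response element. Windows were found for 35 of the 41 members. Of these members 31 had a GC box in at least 1 window (88.6%, beside 46.2% of all genes) and 11 an ETS core (31.4%, beside 10.2%). A CCAAT box was in 19 (54.3%, beside 37%) and the E-box in 7 (20%, beside 7.73%). The cAMP response element was in 2 (5.71%, beside 2.03%). The members had more windows per gene, 68 for 35 members beside 35116 for 27305 genes, which raises a share counted per gene. Per window the GC box was in 57.4% of the members' windows, beside 42.6% of all, and the ETS core in 17.6%, beside 8.52%. The CCAAT box was in 38.2% of these windows, beside 32%, the E-box in 10.3%, beside 6.34%, and the cAMP response element in 2.94%, beside 1.65%. On either strand, 0 of the 35 held the palindrome of ZBTB33 with its CGCG core, beside 0.447% of all genes, or the palindrome of NRF1, beside 1.28%. The windows of the members had a median GC content of 62.8%, beside 58.0% over all windows. A match is a run of letters and not a measured binding site.

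Some members were called in DND-41 alone. ZBTB37 had 546 and 539 counts with ACBI-1 and 406 and 338 with DMSO in DND-41, which gives 0.54 ± 0.10 on the log2 scale (edgeR, adjusted p = 0.000283). In MOLT-4 it had 268 and 270 counts with ACBI-1 and 220 and 341 with DMSO, and the DMSO libraries enclosed the ACBI-1 libraries, at -0.09 ± 0.14 (adjusted p = 0.778). ZBTB12 had 412 and 423 counts with ACBI-1 and 498 and 535 with DMSO in DND-41 (-0.32 ± 0.09, edgeR adjusted p = 0.0241), and 456 and 349 with ACBI-1 and 407 and 380 with DMSO in MOLT-4 (0.0029 ± 0.11, adjusted p = 0.991), where the groups overlapped. C2, which lies opposite ZBTB12, had at most 16 counts.

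ZBTB21 had 1176 and 1167 counts with ACBI-1 and 1458 and 1294 with DMSO in DND-41 (-0.24 ± 0.08, edgeR adjusted p = 0.0361), and in MOLT-4 1874 and 2032 with ACBI-1 and 1941 and 2120 with DMSO, which overlapped (-0.08 ± 0.07, adjusted p = 0.518). ZBTB40 had 1752 and 1840 counts with ACBI-1 and 1546 and 1528 with DMSO in DND-41 (0.22 ± 0.07, edgeR adjusted p = 0.042). Its MOLT-4 counts, 1473 and 1386 with ACBI-1 and 1240 and 1210 with DMSO, did not overlap either, but did not pass the test (0.19 ± 0.07, adjusted p = 0.0657).

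The calls in MOLT-4 alone were ZBTB7C and ZBTB45. ZBTB7C, a close relative of ZBTB7A and ZBTB7B, had 276 and 260 counts with ACBI-1 and 411 and 499 with DMSO in MOLT-4, which gives -0.79 ± 0.11 on the log2 scale (edgeR, adjusted p = 8.08e-06). In DND-41 it had few counts, 15 and 14 with ACBI-1 and 16 and 18 with DMSO (-0.24 ± 0.39, edgeR adjusted p = 0.814). ZBTB45 had 1159 and 997 counts with ACBI-1 and 1254 and 1239 with DMSO in MOLT-4 (-0.24 ± 0.07, edgeR adjusted p = 0.033), and 1304 and 1378 with ACBI-1 and 1551 and 1397 with DMSO in DND-41 (-0.15 ± 0.07, adjusted p = 0.251). In both lines its ACBI-1 libraries lay below its DMSO libraries.

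Several of these calls depended on the tool, and some on other settings as well. DESeq2 called 7 members in each line: ZBTB2, ZBTB4, ZBTB7A, ZBTB11 and ZBTB42 in both, ZBTB17 and ZBTB37 in DND-41, and ZBTB1 and ZBTB7C in MOLT-4. Over all genes DESeq2 called 4.74% in DND-41 and 5.21% in MOLT-4, beside 9.83% and 10.8% with edgeR. It did not call ZBTB26 in either line, nor ZBTB12, ZBTB21, ZBTB40 or ZBTB45 in the line where edgeR did. With edgeR, ZBTB45 in MOLT-4 was also lost with scaling by total counts, with a GC correction and with all 8 libraries in 1 fit. In DND-41 ZBTB21 was lost with scaling by total counts, ZBTB40 with all 8 libraries in 1 fit and ZBTB12 with the GC correction. The authors' deposited table for DND-41 lists the same 7 symbols as DESeq2 here at an adjusted p under 0.05, with ZBTB42 at a log2 fold change of -1.004. The authors' deposited table for MOLT-4 also lists 7, with ZBTB42 at 1.29 because its sign runs as DMSO minus ACBI-1. The share of all genes under this threshold in the deposited tables was not computed.

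**Figure D3:**
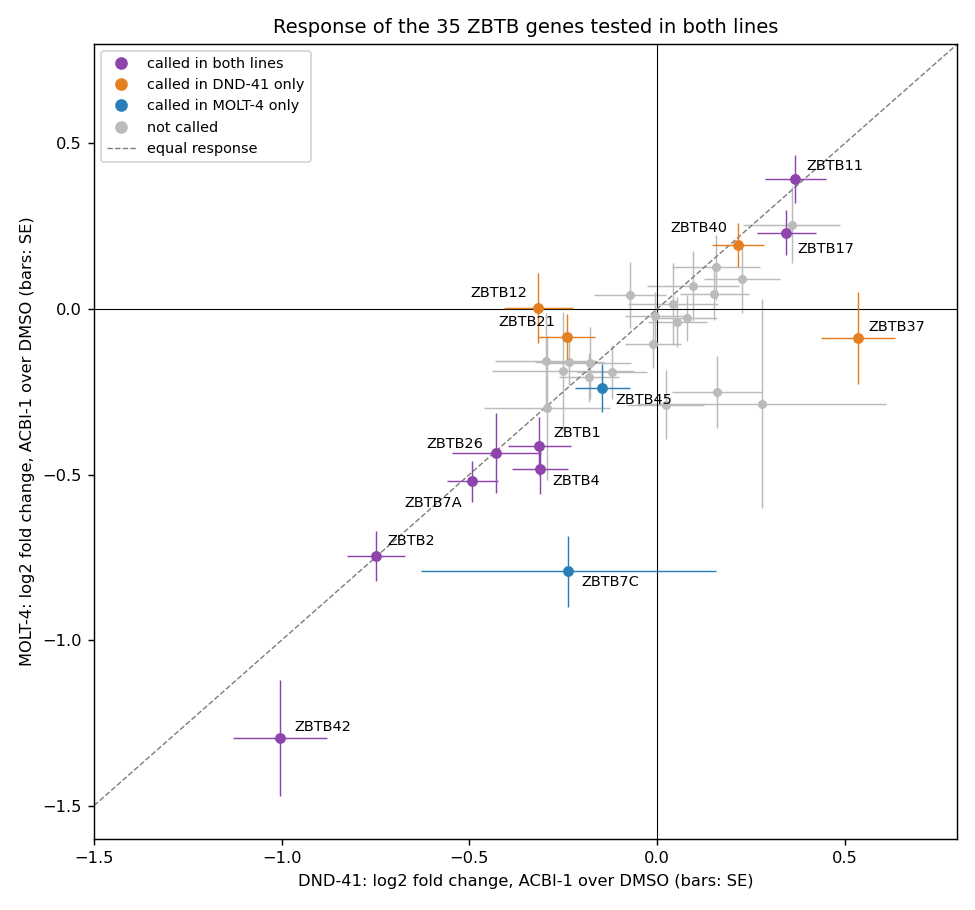
Log2 fold change of ACBI-1 over DMSO in DND-41 (horizontal) against MOLT-4 (vertical) for the 35 ZBTB genes tested in both lines, with standard errors as bars and the dashed line at equal response. The 8 genes called in both lines lie near the dashed line in the same quadrants, from ZBTB42 at -1.004 and -1.30 to ZBTB11 at 0.37 and 0.39, while ZBTB37 lies to the right at 0.54 and -0.09.

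The third comparison set the responses of the lines against each other. Of 35 members tested in both, 8 were called in both and all 8 in the same direction (22.9%), beside 639 of 12968 genes (4.93%). The log2 fold changes had the same sign for 27 members (77.1%, beside 67.3% of all genes), and across the 35 members they had a Pearson correlation of 0.807 and a Spearman correlation of 0.714, beside 0.445 and 0.459 across all genes. These points share their libraries, so the correlations describe the genes and are no test. The difference of responses, DND-41 minus MOLT-4, was called for 0 of 37 members (edgeR, fit of all 8 libraries, adjusted over all genes), beside 0.641% of 15604 genes. At an unadjusted p under 0.05 (edgeR) there were 3 of 37 members, ZBTB37, ZBTB34 and ZBTB12, and DESeq2 called 0 at its adjusted p. The share of all genes under this unadjusted threshold was not computed. Some genes pass it without any difference, so the 3 are not read as a result.

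The largest of these differences among the called members was that of ZBTB37, at 0.60 (95% interval 0.22 to 0.98, edgeR adjusted p = 0.201). It rested on the MOLT-4 DMSO libraries, which stood at 220 and 341 counts. Without replicate 1, the lower of them, the difference was 0.91 (adjusted p = 0.00368), and without replicate 2 it was 0.28 (adjusted p = 0.953). With the replicate number as a block it was 0.59 (adjusted p = 0.0026). ZBTB12 differed by -0.34 (-0.64 to -0.04, adjusted p = 0.528) and ZBTB34, not called in either line, by 0.39 (0.06 to 0.72, adjusted p = 0.501).

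For the other members called in a single line the intervals of the difference included 0. They ran from -0.27 to 1.33 for ZBTB7C, from -0.39 to 0.03 for ZBTB21, from -0.15 to 0.28 for ZBTB45 and from -0.19 to 0.19 for ZBTB40 (edgeR, adjusted p = 0.845, 0.735, 0.955 and 1). For members called in both lines the difference was 0.27 (-0.17 to 0.70) for ZBTB42, -0.03 (-0.25 to 0.20) for ZBTB2, 0.0041 (-0.18 to 0.19) for ZBTB7A and 0.15 (-0.07 to 0.37) for ZBTB4. A call in a single line was therefore not shown to be a difference between the lines.

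The fourth comparison set DND-41 against MOLT-4 in DMSO. Of 37 members tested, 11 were higher and 17 lower in DND-41 (edgeR, fit of all 8 libraries, adjusted p under 0.05). These 28 were 75.7% of the members, beside 64.4% of the 15604 genes tested, and the higher and lower members were 29.7% and 45.9%, beside 31.6% and 32.8%. ZBTB16 and ZBTB47 passed the filter through MOLT-4 alone, so their difference was fixed by it. Both are counted among the 28 called and the 17 lower members. Without DND-41 DMSO replicate 2 fewer members were called, and so was a smaller share of all genes. When a difference above 1.5-fold was tested 6 members were called (16.2%), beside 29.7% of all genes. With these 2 members counted, the share called lay above that of all genes at any fold and below it at this one. This is a description and was not tested.

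ZBTB16, which encodes PLZF and is fused to RARA in a form of promyelocytic leukaemia, had 0 and 1 counts in DND-41 and 152 and 119 in MOLT-4 with DMSO. The single read lay in DND-41 DMSO replicate 2. The summed counts of 1 and 271 give a ratio of 0.00369 (exact 95% interval 9.31e-05 to 0.0207, counting error only). With ACBI-1 the counts were 0 and 1 in DND-41 and 122 and 103 in MOLT-4, and the change within MOLT-4 was -0.30 ± 0.16 (edgeR, adjusted p = 0.28). ZBTB7C had 16 and 18 counts in DND-41 and 411 and 499 in MOLT-4 with DMSO, a log2 difference of -4.79 ± 0.18 (edgeR, adjusted p = 5.25e-19). ZBTB47 had 0 and 0 counts in DND-41 and 13 and 24 in MOLT-4, at least 6.17-fold lower in DND-41 with a floor of 3 counts per library. ZBTB16 and ZBTB47 were at the floor in DND-41. ZBTB7C was low there, at 0.849 CPM with DMSO, but above the floor of 0.151 CPM. That is close to the level of ZBTB47 in MOLT-4 with DMSO, 0.931 CPM.

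The remaining differences were within about 2-fold. Higher in DND-41 were ZBTB42 (0.98 ± 0.13, edgeR adjusted p = 1.03e-07), ZBTB46, a marker of classical dendritic cells (0.94 ± 0.18, adjusted p = 4.39e-05), ZBTB3 (0.45 ± 0.13), ZBTB2 (0.45 ± 0.07), ZBTB14 (0.41 ± 0.10) and ZBTB4 (0.37 ± 0.07). Lower in DND-41 were ZBTB18, a repressor known from neurons (-0.77 ± 0.08, edgeR adjusted p = 5.01e-09), ZBTB21 (-0.62 ± 0.07), ZBTB9 (-0.61 ± 0.09) and ZBTB22 (-0.60 ± 0.11). ZBTB17 (-0.50 ± 0.08, adjusted p = 1.79e-06) and ZBTB48, a protein that binds telomere repeats (-0.51 ± 0.08, adjusted p = 5.93e-06), were lower as well. ZBTB7A (0.04 ± 0.06, adjusted p = 0.623) and ZBTB33 (-0.03 ± 0.08, adjusted p = 0.773) were not called. The value of ZBTB9 is uncertain, since some of its exon bases are shared in the annotation and its counts may be split.

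After ACBI-1, ZBTB48 had 513 and 550 counts in DND-41, against 456 and 494 with DMSO, and 705 and 664 in MOLT-4, against 637 and 664 with DMSO. Its change passed no test in DND-41 (0.15 ± 0.09, edgeR adjusted p = 0.356) or MOLT-4 (0.04 ± 0.08, adjusted p = 0.811). The members that were tested and not called lay between -0.30 and 0.36 in DND-41 and between -0.30 and 0.25 in MOLT-4.

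**Figure D4:**
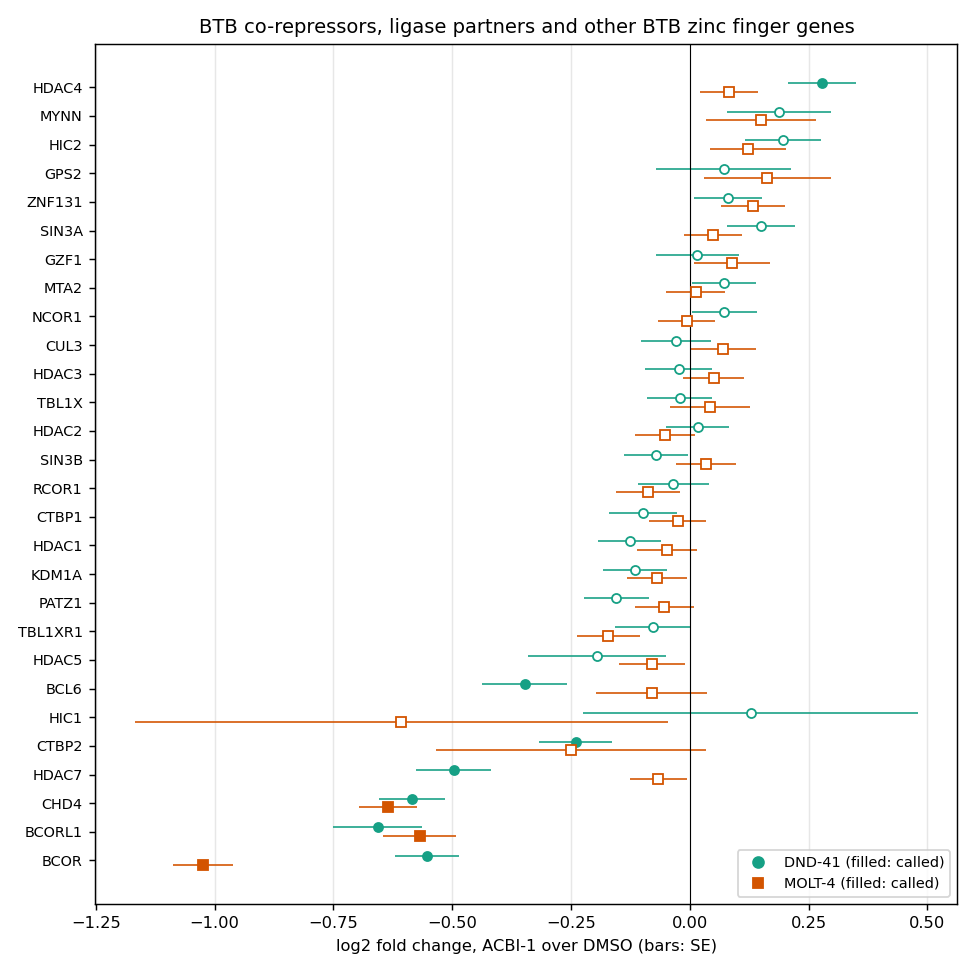
Log2 fold change of ACBI-1 over DMSO, with standard errors, for co-repressor and ligase partner genes of BTB domains and 7 further BTB zinc finger genes, with DND-41 circles above MOLT-4 squares and filled symbols for called changes. BCOR, BCORL1 and CHD4 lie below 0 in both lines, with BCOR at -0.55 (DND-41) and -1.03 (MOLT-4), and most others lie close to 0.

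The partners that BTB domains recruit were read from a list of 22 co-repressor and ligase genes, all of which were tested in both lines. In DND-41 1 rose and 5 fell (edgeR, adjusted over all genes), which is 27.3% of the list beside 9.83% of all genes. In MOLT-4 0 rose and 3 fell, 13.6% beside 10.8%. The medians were -0.05 in DND-41 and -0.04 in MOLT-4. BCOR, the co-repressor bound by BCL6, had 2436 and 2630 counts with ACBI-1 and 3777 and 3612 with DMSO in DND-41, and 1586 and 1594 with ACBI-1 and 3217 and 3127 with DMSO in MOLT-4. It fell in both lines, with a log2 fold change of -0.55 ± 0.07 in DND-41 (edgeR, adjusted p = 3.64e-07) and -1.03 ± 0.06 in MOLT-4 (adjusted p = 1.39e-11), and its responses differed (0.45 ± 0.09, adjusted p = 0.0101).

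Its relative BCORL1 had 343 and 364 counts with ACBI-1 and 549 and 559 with DMSO in DND-41, and 686 and 611 with ACBI-1 and 936 and 949 with DMSO in MOLT-4. CHD4, the ATPase of the NuRD complex, had 4601 and 5036 counts with ACBI-1 and 7228 and 7123 with DMSO in DND-41, and 5160 and 4714 with ACBI-1 and 7479 and 7545 with DMSO in MOLT-4. Both lay lower in every ACBI-1 library, with BCORL1 at -0.66 ± 0.09 (DND-41) and -0.57 ± 0.08 (MOLT-4), and CHD4 at -0.58 ± 0.07 (DND-41) and -0.63 ± 0.06 (MOLT-4). In DND-41 HDAC7 (-0.50 ± 0.08) and CTBP2 (-0.24 ± 0.08) fell and HDAC4 rose (0.28 ± 0.07), and the response of HDAC7 differed between the lines (-0.45 ± 0.10, edgeR adjusted p = 0.0259). Of the other list genes NCOR1, HDAC3 and CUL3 were not called in either line.

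Of 8 BTB zinc finger genes without a ZBTB symbol, 7 were tested. BCL6, the repressor of germinal-centre B cells and follicular helper T cells, fell in DND-41 (-0.35 ± 0.09, edgeR adjusted p = 0.00846), with 520 and 628 counts with ACBI-1 and 752 and 699 with DMSO. In MOLT-4 it had 237 and 229 counts with ACBI-1 and 260 and 223 with DMSO, which overlapped (-0.08 ± 0.12, adjusted p = 0.763). No other gene of this list was called in either line. The calls were 14.3% of the 7 in DND-41, beside 9.83% of all genes, and 0% in MOLT-4, beside 10.8%. The medians of this list were 0.08 in DND-41 and 0.09 in MOLT-4.

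Among 12 tested partners and targets of ZBTB17, 1 rose and 4 fell in DND-41 (41.7%, beside 9.83% of all genes) and 1 rose and 1 fell in MOLT-4 (16.7%, beside 10.8%). MYC rose in DND-41 (0.30 ± 0.09, edgeR adjusted p = 0.0274) and in MOLT-4 (0.35 ± 0.06, adjusted p = 0.0003). GFI1, a repressor that binds MIZ-1, fell in DND-41 (-0.44 ± 0.08, edgeR adjusted p = 0.000338) and in MOLT-4 (-0.34 ± 0.07, adjusted p = 0.00135). CDKN1A, which MIZ-1 activates, fell in DND-41 (-0.70 ± 0.11, edgeR adjusted p = 5.76e-05), with 248 and 216 counts with ACBI-1 and 398 and 349 with DMSO, and the groups did not overlap. In MOLT-4 it had 42 and 31 counts with ACBI-1 and 44 and 40 with DMSO, which overlapped (-0.23 ± 0.25, adjusted p = 0.665). BCL2, an inhibitor of cell death (-0.30 ± 0.07, edgeR adjusted p = 0.00246), and AMBRA1, a regulator of autophagy (-0.25 ± 0.07, adjusted p = 0.019), fell in DND-41 and were not called in MOLT-4 (adjusted p = 0.298 and 0.934). The medians of this list were 0.0039 in DND-41 and -0.06 in MOLT-4.

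The list around ZBTB7B and the choice between CD4 and CD8 fates held 17 tested genes. In DND-41 ID3 and MYB rose and RUNX3 and CBFB fell, and in MOLT-4 ETS1, EGR1, EGR2 and MYB rose and SATB1, GATA3, CBFB and LEF1 fell (edgeR, adjusted over all genes). These were 23.5% of the list in DND-41, beside 9.83% of all genes, and 47.1% in MOLT-4, beside 10.8%. RUNX3, which drives the CD8 fate, had 1997 and 2084 counts with ACBI-1 and 2742 and 2489 with DMSO in DND-41 (-0.37 ± 0.07, adjusted p = 0.000349), against 118 to 147 counts across the MOLT-4 libraries. The responses of ID3 (1.04 ± 0.14, adjusted p = 8.14e-05), SATB1 (0.44 ± 0.09, adjusted p = 0.0112) and GATA3 (0.40 ± 0.09, adjusted p = 0.0423) differed between the lines. The medians of this list were -0.0083 in DND-41 and -0.04 in MOLT-4.

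The log2 fold change was also set against the GC content of the longest transcript. The Pearson correlation was -0.299 over 35 members in DND-41 and -0.206 over 37 in MOLT-4, beside -0.115 and -0.0479 over all genes with a value. With so few members these values are a description, and a relation to GC content was not tested. With a GC correction chosen after seeing the data, 11 members were called in DND-41 and 10 in MOLT-4, of which 11 and 9 were among the calls given above. Over all genes this correction called 11.8% in DND-41 and 13% in MOLT-4.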

How the data were processed

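Total RNA of 8 libraries (4 groups of 2) was sequenced as strand-specific paired reads. The authors deposited raw counts per gene for each line. They also deposited tables of log2 fold changes with p-values and adjusted p-values. Per the submitters' processing notes, STAR 2.5.2a, featureCounts, DESeq2 1.12.4 and build hg19 were used. The counting's strand setting is not given in the sources used here. In the deposited MOLT-4 table the log2 fold change runs as DMSO minus ACBI-1.

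From the counts as deposited, edgeR 4.0.16 (limma 3.58.1, R 4.3.3) was run with TMM scaling, its filter on low counts, the quasi-likelihood F test and Benjamini-Hochberg adjustment over all genes tested, at 0.05. Each line's ACBI-1 effect used its 4 libraries. The difference of responses and the comparison of lines used all 8. Standard errors are the log2 fold change over the root of F. Alternatives were DESeq2 1.42.0, other scalings, no filter, stricter thresholds, a replicate block and leaving out each library. A GC correction was added after seeing the data. With 2 libraries a group no exact permutation test can reach 0.05. The totals of 19867779 to 20082524 counts set the floor of 0.151 CPM, which covers counting error only. CPM used library totals, and exon lengths came from GENCODE release 29 on GRCh38, another build than that of the counts.

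The ZBTB genes and the lists beside them were chosen with earlier results of these data known. Named genes were those called in either line, the 6 largest differences between the lines in each direction among members whose mean reached 1 CPM, and a set of known T-lineage and methyl-DNA members. ZBTB34, singled out for its unadjusted p, and the genes named from the lists were chosen after their values were seen. Some genes of the lists are not reported here by name.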

Additional observations from a re-analysis of the deposited data

How the results depend on the processing

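The count of ZBTB genes called in DND-41, 12 as reported, was 7 with DESeq2, 0 with no filter on low counts and 7 at a threshold of 1% (beside 5.44% of all genes). It ran between 0 and 7 when 1 library was left out. In MOLT-4 the count, 10 as reported, was 1 with no filter and ran between 0 and 8 when 1 library was left out. Over all genes, 1378 calls in DND-41 became 664 with DESeq2, 2 with no filter and 2230 with the replicate block, and 1568 calls in MOLT-4 became 754, 39 and 2228. With the replicate number as a block, 15.9% of all genes were called in DND-41 and 15.4% in MOLT-4. Between the lines it was 61.5%, and for the difference of responses 1.94%. The members called were 14 of 35 in DND-41, 13 of 37 in MOLT-4, 25 of 37 between the lines and 1 of 37 for the difference of responses. That member was ZBTB37 (0.59, adjusted p = 0.0026), and the count of differing responses ran between 0 and 1 when 1 library was left out. Same-numbered libraries correlated at 0.171 (DND-41) and 0.161 (MOLT-4) after removal of group means, over 2 pairs, so the numbers are not shown to pair them. Between the lines 28 members (75.7%, beside 64.4% of all genes) became 6 with a minimum fold of 1.5 (16.2%, beside 29.7%). Leaving out 1 library lowered this count or left it unchanged, and the share of all genes called moved as well. The signs that turned belonged to values near 0. ZBTB12 in MOLT-4 was -0.0018 with the replicate block. The difference of responses of ZBTB26 was 0.0029 with DESeq2, 0.0026 with its size factors and 0.0044 with no filter. That of ZBTB40 was 0.0175 with DESeq2, 0.0175 with its size factors, 0.0037 with total counts, 0.0191 with no filter and 0.0339 with the GC correction. With 1 library left out, ZBTB33 ran between -0.0182 and 0.122 in DND-41 and between -0.125 and 0.0543 in MOLT-4, ZBTB12 between -0.19 and 0.18 and ZBTB37 between -0.37 and 0.26 in MOLT-4. The difference of responses ran between -0.0015 and 0.18 for ZBTB1, -0.105 and 0.0210 for ZBTB11, -0.122 and 0.0639 for ZBTB2, -0.126 and 0.0854 for ZBTB26, -0.0231 and 0.0636 for ZBTB40 and -0.0598 and 0.0747 for ZBTB7A. Other scalings moved the median of all genes by at most 0.0503. The cause of these changes was not tested.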
